A study of Homo sapiens with 7 samples.

Results

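Metallothioneins are small, cysteine-rich proteins that bind zinc, copper and cadmium. The genes described here are those of the deposited table whose symbol names a metallothionein of class 1 or MT2A, together with MTF1, and they numbered 7 of the 11408 genes with values. They were MT2A, MT1E, MT1F, MT1G, MT1H, MT1X and MTF1. The group was chosen by the guides-against-control values of its genes as well as by name, so that contrast is given for them as a description with no test. No threshold was used in the choice.

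Metallothioneins buffer free zinc, carry it to other proteins and take up toxic metals. MTF1, the metal-responsive transcription factor, binds zinc through its zinc fingers and then switches on metallothionein genes through short metal response elements in their promoters. Glucocorticoids and oxidative stress are other well-known inducers of these genes.

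RNA was measured in 7 libraries of MOLM13, an established human acute myeloid leukemia cell line. The 3 control libraries carried sgRosa, a guide RNA with no target per the labels, and the other 4 carried 1 of 2 guide RNAs against ZFP36L2, with 2 libraries for each. All were taken 6 days after transduction, made from poly(A)-selected RNA with a directional kit and sequenced from a single end. The deposited columns name the guides 3 and 5, which the labels number otherwise, and these names are used here. Whether the replicates came from separate cultures, and whether cells were pooled or single clones, is not given in the labels, so each p-value measures the spread between these samples, which may be technical. In bulk RNA, fewer cells that express a gene and less RNA per cell cannot be told apart.

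Reads assigned to the listed genes came to between 16907955 and 38807816 per library. The mRNA of the targeted gene did not fall. ZFP36L2 was at 327 ± 14.4 CPM in the controls (SD, n = 3) and 977 ± 320 CPM in the libraries labelled with a guide (SD, n = 4). The log2 change was 1.52 ± 0.16 (adjusted p = 1.3e-05, limma). ZFP36L2 protein was not measured here, so the mRNA level does not show whether the protein was lost. Every direction given here is therefore between libraries as labelled, and these are called the guide-labelled libraries. CPM are read counts scaled to a common library size as the authors set it, log2 changes are of CPM + 0.5 and are given with their SE from limma, and calls use an adjusted p under 0.05 (Benjamini-Hochberg over 11408 genes). Of the myeloid markers CD33, SPI1, FLT3, MPO, CSF3R and LYZ, 6 of 6 had values, and their summed level ran from 4952 to 7679 CPM in the controls and from 10675 to 19866 CPM in the guide-labelled libraries. Most of that sum was LYZ, with means of 5088 CPM in the controls and 13196 CPM in the guide-labelled libraries. SPI1, CSF3R and LYZ rose, FLT3 and MPO fell, and CD33 was not called. Of the markers of other cell types, 0 of the 8 B cell, erythroid and fibroblast genes had values, 1 of 3 T cell genes had values, CD3D, which fell from 15.4 to 6.93 CPM, KRT18 was at 2.38 and 1.504 CPM, and PECAM1, which monocytes also carry, rose from 250 to 688 CPM. The part of these markers in the results was not tested.

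The 6 metallothionein genes lie in 76.0 kb of chromosome 16 (GRCh38, GENCODE 29), at chr16:56608199-56684196. MT2A (ENSG00000125148) is at chr16:56608199-56609497, MT1E (ENSG00000169715) at chr16:56625475-56627112, MT1F (ENSG00000198417) at chr16:56657694-56660698, MT1H (ENSG00000205358) at chr16:56669814-56671129 and MT1X (ENSG00000187193) at chr16:56682424-56684196, all on the plus strand. MT1G (ENSG00000125144) is at chr16:56666731-56668065 on the minus strand. Each has 3 exons in the transcript used here. MTF1 (ENSG00000188786) has 11 exons and lies elsewhere, at chr1:37809567-37859620 on the minus strand. MT1X overlaps AC026461.1 on its own strand, and MTF1 overlaps AL929472.4 on the opposite strand. Other metallothionein genes were not analysed here.

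The coding sequences of the 6 genes are close copies, which bears on every value below because reads are short. Each has 186 bases, or 61 codons before the stop. Between pairs, the share of identical bases ran from 88.7% (MT1F and MT1X) to 95.2% (MT1G and MT2A). The first 60 coding bases are shown from the start codon, 5′ to 3′, read from the GENCODE 29 transcripts, and capitals mark each base that differs from the most frequent base at that place among the 6 genes.
MT2A: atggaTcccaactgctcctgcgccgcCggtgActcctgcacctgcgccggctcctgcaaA
MT1E: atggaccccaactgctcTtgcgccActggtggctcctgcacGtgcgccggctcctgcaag
MT1F: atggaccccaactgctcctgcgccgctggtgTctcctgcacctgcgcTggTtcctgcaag
MT1G: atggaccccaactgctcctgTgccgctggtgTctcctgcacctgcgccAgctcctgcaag
MT1H: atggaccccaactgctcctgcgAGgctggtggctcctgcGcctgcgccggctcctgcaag
MT1X: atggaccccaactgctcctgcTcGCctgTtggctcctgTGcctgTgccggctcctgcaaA
MT1E, MT1F, MT1G and MT1H each have 3 such bases in this stretch, MT2A has 4 and MT1X has 8. Of the 50-base words in its transcript, MT1X shares 45.1% (181 of 401) with 9 other genes, MT1H 20.4% (71 of 348) with MT1G and MT1HL1, and MT1G 20.2% (72 of 357) with 11 genes. The 9 genes include AC026461.1, which overlaps MT1X on its own strand. Part of the MT1X share may thus be the same stretch of the genome and not a copy, and how large that part is was not measured. The shares are 5.34% for MT1E, 4.88% for MT2A, 3.59% for MT1F and 0.644% for MTF1. Reads that fall on shared words cannot be told apart by sequence, and how the authors counted them is not given in the sources used here, so on this measure alone MT1X, MT1H and MT1G hold the largest shares of sequence whose reads may belong to another gene.

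Per kilobase of transcript, the levels in the controls ran from 444 CPM per kb for MT1G through 122 for MT1E, 73.4 for MT1X, 69.9 for MT2A, 60.5 for MT1H and 59.9 for MT1F to 9.38 for MTF1. The ranges of MT1X, MT2A, MT1H and MT1F in the controls overlapped, and no test was run between genes. Within each control library MT1X was above MT1F, at 54.9 and 51.1, 75.3 and 52.4, and 90.0 and 76.2 CPM per kb. In the guide-labelled libraries, MT1G was again highest with 299 CPM per kb, followed by MT2A with 103 and MT1E with 93.7, whose ranges overlapped. MT1X had 69.5, MT1F 54.2, MT1H 19.3 and MTF1 11.8 CPM per kb. By mean, MT1H stood between MT2A and MT1F in the controls and below all other metallothioneins in the guide-labelled libraries. All these levels divide by the length of 1 annotated transcript per gene, such as 786 bases for MT2A and 450 for MT1X. The longest annotated transcript of MT1X has 1727 bases, so the order of the genes depends on the transcript used.

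MT1H was the member with the lowest values in the guide-labelled libraries relative to the controls. It stood at 28.5, 11.03 and 32.6 CPM in control replicates 1 to 3, at 7.23 and 7.42 CPM with guide 3, and at 8.46 and 7.47 CPM with guide 5. The 4 guide-labelled libraries were all below the 3 controls and close to each other, while control replicate 2 was far below the other controls. The mean was 24.04 ± 11.5 CPM in the controls (SD, n = 3) and 7.64 ± 0.553 CPM in the guide-labelled libraries (SD, n = 4). The log2 difference was -1.45 ± 0.31, with -1.51 ± 0.37 for guide 3 and -1.40 ± 0.37 for guide 5, which share the 3 controls.

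The depth behind MT1H was 236 to 797 reads per control library and 218 to 316 reads per guide-labelled library. The closest pair across the groups was control replicate 2, at 11.03 CPM with an exact Poisson 95% interval of 9.67 to 12.5, and guide 5 replicate 1, at 8.46 CPM with an interval of 7.55 to 9.45. These intervals cover counting error alone, which is smaller than the spread among the controls. Without control replicate 2 the log2 difference was -1.93, and without control replicate 3 it was -1.17. Genes with all guide-labelled libraries below all controls made up 23.7% of the 11408.

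MT2A, the widely expressed metallothionein of class 2, had a higher mean in the guide-labelled libraries than in the controls. It stood at 46.9, 31.9 and 85.9 CPM in the controls, at 72.9 and 95.6 CPM with guide 3, and at 90.7 and 65.5 CPM with guide 5. The groups overlapped, because control replicate 3 was above 2 of the guide-labelled libraries. The mean was 54.9 ± 27.8 CPM in the controls (SD, n = 3) and 81.2 ± 14.3 CPM in the guide-labelled libraries (SD, n = 4), and the log2 difference was 0.66 ± 0.28. It depended on which controls were used, with 0.33 without control replicate 2 and 1.04 without control replicate 3, and was 0.29 after a correction for transcript GC content and length. That correction used the longest annotated transcript of each gene, which for MT2A has 903 bases, and not the transcript of 786 bases used for the levels per kilobase.

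MT1G, which had the highest level per kilobase, was also the most variable of the 7 in the controls. It stood at 174, 78.6 and 288 CPM in the controls, at 124 and 167 CPM with guide 3, and at 119.8 and 75.8 CPM with guide 5. The highest control was 3.66-fold above the lowest, and 3 of the 4 guide-labelled libraries lay within the range of the controls. The log2 difference of -0.43 ± 0.34 became -0.93 without control replicate 2 and 0.00 without control replicate 3, and -0.97 after the GC and length correction.

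MT1E, MT1F and MT1X overlapped between the groups. MT1E stood at 72.6, 67.2 and 117 CPM in the controls, at 69.6 and 78.1 CPM with guide 3, and at 63.2 and 53.1 CPM with guide 5. Its lowest values were both guide 5 libraries, and its log2 difference from control was -0.34 ± 0.21, with -0.09 without control replicate 3. MT1F ranged from 35.3 to 52.6 CPM in the controls and from 30.7 to 44.1 CPM in the guide-labelled libraries, with a log2 difference of -0.13 ± 0.20. MT1X ranged from 24.7 to 40.5 CPM and from 24.7 to 39.4 CPM, with a log2 difference of -0.07 ± 0.22. After the GC and length correction the log2 differences were -0.69 for MT1E, -0.72 for MT1F and -0.41 for MT1X. For each of MT1F and MT1X, 3 of the 4 guide-labelled libraries lay within the range of the controls.

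MTF1, the transcription factor, stood at 62.1, 99.1 and 63.1 CPM in the controls, at 106.3 and 94.2 CPM with guide 3, and at 88.8 and 86.7 CPM with guide 5. Here control replicate 2 was the high control, near the guide-labelled libraries, while it was the lowest control for MT2A, MT1E, MT1G and MT1H. The log2 difference was 0.36 ± 0.19 with all libraries and 0.58 without control replicate 2. These are mRNA levels, and whether MTF1 protein was bound to zinc or to DNA was not measured.

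**Figure D1:**
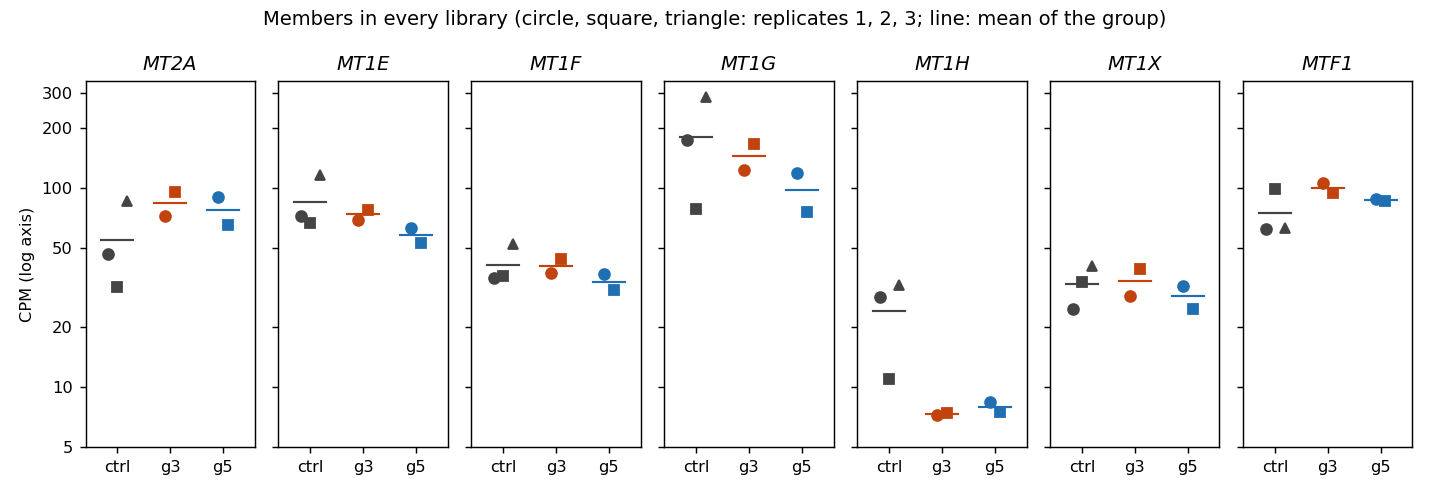
Level of each gene in every library, in CPM on a log axis, for controls (ctrl), guide 3 (g3) and guide 5 (g5), with symbols for the replicate and a line at the group mean. MT1H is the gene whose 4 guide-labelled libraries, at 7.23 to 8.46 CPM, all sit below the controls, at 11.03 to 32.6 CPM; in the other 6 panels the groups overlap.

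Read against the whole table, 41.4% of the 11408 genes passed the threshold for guides minus control, with 20.9% up and 20.6% down. Of the 7 genes, 1 lay past it, MT1H, and nothing is read from this because the same contrast was used to choose them. The authors' deposited table gives log2 fold changes of -1.71 with guide 3 and -1.59 with guide 5 for MT1H, and of 0.62 and 0.51 for MT2A. In that table MT1G had -0.31 and -0.88, MT1E -0.21 and -0.56, MT1F -0.02 and -0.29, MT1X 0.04 and -0.21, and MTF1 0.42 and 0.23.

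**Figure D2:**
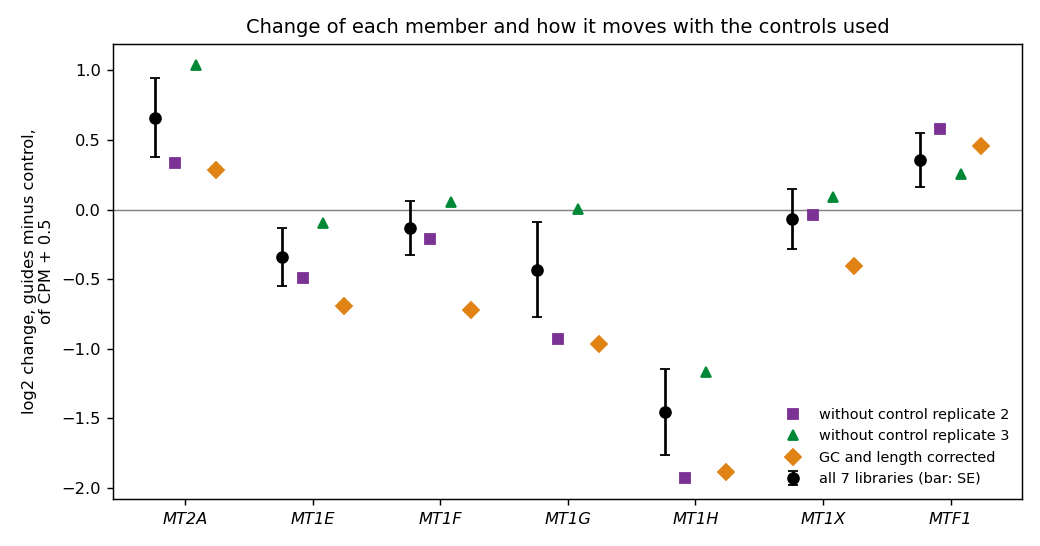
Log2 difference of each gene (guides minus control, of CPM + 0.5) with all 7 libraries (black, bars are SE) and without control replicate 2, without control replicate 3 or after correction for transcript GC content and length. MT1H stays between -1.93 and -1.17, while MT1G runs from -0.97 to 0.00.

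The spread among the controls was itself a feature of 3 of these genes. The SD of log2 levels over the 3 controls was 0.94 for MT1G, 0.83 for MT1H and 0.71 for MT2A, against a median of 0.31 over all genes. These values lie at the 99.1, 98.3 and 96.2 percentiles of the 11408 genes. MT1E (0.43), MTF1 (0.38), MT1X (0.35) and MT1F (0.32) were nearer to the median. Among the 4 guide-labelled libraries the SD was 0.47 for MT1G, 0.26 for MT2A and 0.10 for MT1H, against a median of 0.20 over all genes.

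The summed level of the 6 metallothioneins was 382, 259 and 617 CPM in the controls, 339.9 and 431 CPM with guide 3, and 352 and 257 CPM with guide 5. The mean was 419 ± 182 CPM in the controls (SD, n = 3) and 345 ± 71.2 CPM in the guide-labelled libraries (SD, n = 4), so the groups overlapped and the total did not separate them. The shares of MT2A and MT1H in that total did not overlap between the groups. In levels, 43.5% of all 11408 genes had groups that did not overlap in either direction, and nothing is read from the count of 2 of 6. Shares of the total were examined after the levels had been seen, and they use the same contrast that chose the genes, so they are a description.

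MT2A made up 12.3%, 12.3% and 13.9% of the metallothionein CPM in the controls, 21.4% and 22.2% with guide 3, and 25.8% and 25.4% with guide 5. The 3 controls were close together although their totals ran from 259 to 617 CPM, all 4 guide-labelled libraries were above them, and the guide 5 libraries were above the guide 3 libraries. The mean share was 12.9 ± 0.935% in the controls (SD, n = 3) and 23.7 ± 2.23% in the guide-labelled libraries (SD, n = 4), a difference of 10.9 percentage points. With each library left out in turn this difference ran from 10.2 to 11.6 percentage points.

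MT1H made up 7.45%, 4.26% and 5.29% of the total in the controls, 2.13% and 1.72% with guide 3, and 2.41% and 2.90% with guide 5. All guide-labelled libraries were below all controls, with a mean of 5.67 ± 1.63% against 2.29 ± 0.496% and a difference of -3.38 percentage points. MT1G made up 45.6%, 30.4% and 46.7% of the total in the controls and 29.5% to 38.7% in the guide-labelled libraries, and these ranges overlapped. MT1E (21.3 ± 4.02% and 19.3 ± 1.46%), MT1F (10.6 ± 2.95% and 10.9 ± 0.735%) and MT1X (8.71 ± 3.796% and 9.09 ± 0.490%) overlapped too. Control replicate 2 was again apart, with 13.1% of its total in MT1X against 6.48% and 6.57% in the other controls.

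**Figure D3:**
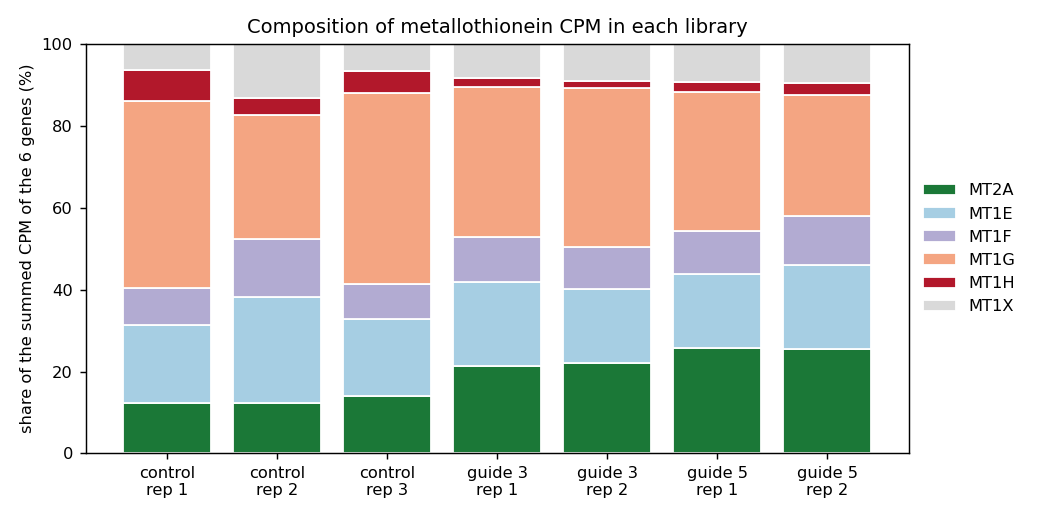
Share of each of the 6 genes in the summed metallothionein CPM of each library, in percent (bars add to 100). The MT2A segment is 12.3% to 13.9% in the controls and 21.4% to 25.8% in the guide-labelled libraries, and the MT1H segment is narrower in all 4 of the latter.

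The guides could be compared with each other by a test, since the choice of genes did not use that contrast. Of all the genes, 0.412% (47 of 11408) passed the threshold for guide 5 minus guide 3, and 0 of the 7 genes described here did. At an unadjusted p under 0.05, 1166 of the 11408 genes differed. The largest difference among the members was that of MT1G, at -0.59 ± 0.45 (adjusted p = 0.66, limma), followed by MT1E at -0.35 ± 0.27 (adjusted p = 0.67). MT1H, at 0.11 ± 0.41 (adjusted p = 0.95), and MT2A, at -0.11 ± 0.37 (adjusted p = 0.93), were closest to 0. MT1F had -0.27 ± 0.26, MT1X -0.24 ± 0.28 and MTF1 -0.19 ± 0.25, with adjusted p of 0.73, 0.78 and 0.81. These SEs come from a spread pooled over all groups, so the controls enter them although they are not in the contrast. Without control replicate 2 the differences were the same, but the SE was 0.18 for MT1H and 0.26 for MT1G. With the SEs of the full fit, a difference of the order of the members' own changes was not detectable for most of them.

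The promoters bear on how these genes respond to metals, because MTF1 acts through the metal response element, whose core was searched for as TGCACNC or TGCGCNC on both strands. RefSeq promoter sequences (GRCh38.p14) were matched for 4 of the 7 genes, MT1H, MT1X, MT2A and MTF1. The 250 bases before the RefSeq start are shown 5′ to 3′ on the gene's own strand for the 3 metallothioneins, with every base inside a match in capitals. They are chr16:56669564-56669813 for MT1H, chr16:56682220-56682469 for MT1X and chr16:56608334-56608583 for MT2A, all on the plus strand. The RefSeq and GENCODE starts differ: the MT2A stretch lies inside the GENCODE gene, which starts at 56608199. The end of the MT1X stretch overlaps its GENCODE gene, which starts at 56682424.
MT1H: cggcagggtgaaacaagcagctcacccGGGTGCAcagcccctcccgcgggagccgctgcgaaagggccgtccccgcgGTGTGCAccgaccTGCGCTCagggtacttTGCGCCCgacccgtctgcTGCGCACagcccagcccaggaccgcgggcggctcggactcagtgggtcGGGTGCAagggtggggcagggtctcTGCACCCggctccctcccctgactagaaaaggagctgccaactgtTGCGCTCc
MT1X: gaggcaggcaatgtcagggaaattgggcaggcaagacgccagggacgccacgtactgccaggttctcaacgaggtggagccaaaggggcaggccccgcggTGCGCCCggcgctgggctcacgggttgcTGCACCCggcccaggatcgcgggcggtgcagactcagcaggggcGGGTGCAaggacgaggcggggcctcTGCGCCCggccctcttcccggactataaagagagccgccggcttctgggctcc
MT2A: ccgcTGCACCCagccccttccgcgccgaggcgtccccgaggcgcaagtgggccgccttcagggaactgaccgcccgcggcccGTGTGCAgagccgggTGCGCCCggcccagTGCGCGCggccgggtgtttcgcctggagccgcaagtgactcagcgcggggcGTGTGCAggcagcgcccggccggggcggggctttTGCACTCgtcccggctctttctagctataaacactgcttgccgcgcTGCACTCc
In the 300 bases from 250 before to 50 after the start, MT1H held 8 matches, MT2A 8, MT1X 4 and MTF1 0. At least 1 match was present in 29.6% of all 35116 promoters of this length, at least 4 in 0.601% and at least 8 in 0.0199%, which is 7 promoters. A match is a run of letters and not a measured binding site, and overlapping matches were counted separately.

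ZFP36L2 is known to bind AU-rich elements in 3′ UTRs and to promote decay of the mRNA. The 3′ UTRs of the 6 metallothioneins have 139 to 148 bases and hold 0 copies of ATTTA and 0 of TATTTAT, a longer run that contains it. Of 150 annotated 3′ UTRs of that length, 22.0% hold ATTTA and 3.33% hold TATTTAT. MTF1, with a 3′ UTR of 5569 bases, holds 7 copies of ATTTA and 0 of TATTTAT, while of 398 3′ UTRs within 500 bases of its length 99.5% hold the shorter and 73.4% the longer run. Binding was not measured, and other sequences that the protein may bind were not searched.

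Zinc transporters set how much zinc reaches MTF1, and the importers of the ZIP family went both ways. Of 14 listed, 10 had values, of which 3 rose and 2 fell, with a median log2 change of 0.02, beside -0.05 over all genes. Over all 11408 genes 20.9% rose and 20.6% fell, and these shares stand beside this and every list count below. No set test was run, and nothing is read from the counts alone. SLC39A8, an importer of zinc, manganese and cadmium, stood at 97.9, 97.2 and 77.1 CPM in the controls, 18.6 and 19.2 CPM with guide 3, and 34.9 and 43.8 CPM with guide 5. It was lower in all 4 guide-labelled libraries than in any control, and lowest with guide 3. Its log2 change was -1.71 ± 0.18 (adjusted p = 1.2e-05). SLC39A10, another importer at the cell surface, fell from 94.4 to 42.6 CPM, by 1.13 ± 0.18 on the log2 scale (adjusted p = 0.00043), and had -0.65 after GC correction.

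The importers that rose were SLC39A13, SLC39A4 and SLC39A3. SLC39A13 changed by 1.10 ± 0.22 from 10.0 CPM (adjusted p = 0.0021), and by 0.37 (adjusted p = 0.045) after GC correction. SLC39A4, the intestinal zinc importer, changed by 0.83 ± 0.22 (adjusted p = 0.0093), which became 0.65 (adjusted p = 0.056) without control replicate 1 and 0.47 (adjusted p = 0.053) after GC correction. SLC39A3 changed by 0.58 ± 0.20 (adjusted p = 0.038). The count of risen importers was 1 without control replicate 1, and 2 without control replicate 2, in each fit that left out a guide-labelled library and after GC correction. Those that fell numbered 3 without control replicate 2 and after GC correction. The summed level of the 10 importers was 882 to 975 CPM in the controls and 792 to 888 CPM in the guide-labelled libraries, so those ranges met.

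Of the zinc exporters of the ZnT family, 5 of 10 had values, with 0 risen, 2 fallen and a median log2 change of -0.45. After GC correction the direction turned, with 1 risen, 0 fallen and a median of 0.05. SLC30A1, which exports zinc from the cell and is a described MTF1 target, was at 85.8 ± 17.5 CPM in the controls and 83.5 ± 10.7 CPM in the guide-labelled libraries, a log2 change of -0.03 ± 0.19 (adjusted p = 0.91). SLC30A5 (-0.61 ± 0.17, adjusted p = 0.015) and SLC30A6 (-0.48 ± 0.18, adjusted p = 0.047), which load zinc into the secretory pathway, were those that fell. Both were sensitive to the libraries used: 0 of the 5 passed in the fits without control replicate 1, without guide 3 replicate 2 and without guide 5 replicate 1. After GC correction SLC30A5 was at -0.19 (adjusted p = 0.18) and SLC30A6 at 0.00 (adjusted p = 0.99).

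Of 10 genes described as MTF1 targets outside the family, 6 had values, of which 2 rose and 2 fell, with a median log2 change of 0.01. The count and the median do not separate targets by the direction in which MTF1 acts on them, so they do not measure its activity. NDRG1, a stress- and hypoxia-induced gene, rose from 331 to 1146 CPM, by 1.79 ± 0.16 on the log2 scale (adjusted p = 3.8e-06). TXNRD2, the mitochondrial thioredoxin reductase, had 0.76 ± 0.23 (adjusted p = 0.021) but 0.03 after GC correction (adjusted p = 0.89). SLC39A10 fell, as given above, and so did GCLC, the catalytic subunit of glutathione synthesis (-0.61 ± 0.19, adjusted p = 0.021, and -0.38 after GC correction). GCLC and TXNRD2 missed the threshold without control replicate 1 (adjusted p = 0.065 and 0.064), without guide 3 replicate 2 (0.10 and 0.058) and without guide 5 replicate 1 (0.097 and 0.094), which left 1 risen and 1 fallen in each of those fits.

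Copper is the other physiological metal of metallothioneins. Of 11 genes of copper handling, 9 had values, 3 rose and 2 fell, and the median log2 change was 0.32. SLC31A2, a copper transporter of endosomes, rose from 9.31 to 22.6 CPM (1.26 ± 0.26, adjusted p = 0.0029). CCS, the chaperone that loads copper into SOD1, changed by 0.88 ± 0.19 (adjusted p = 0.0032) and by 0.09 after GC correction (adjusted p = 0.64), and COX17, a mitochondrial copper chaperone, by 0.72 ± 0.22 (adjusted p = 0.021). SOD1, the copper and zinc superoxide dismutase, fell from 175 to 112 CPM (-0.64 ± 0.16, adjusted p = 0.0077, and -0.98 after GC correction), as did SCO1, a copper chaperone of cytochrome oxidase (-0.61 ± 0.17, adjusted p = 0.014). Without guide 5 replicate 1 the count was 2 risen and 0 fallen, with SOD1 at an adjusted p of 0.050 and COX17 at 0.063. COX17 also missed the threshold without control replicate 1, guide 3 replicate 2 or guide 5 replicate 2 (adjusted p = 0.085, 0.10 and 0.060).

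Cadmium and oxidative stress induce other genes beside metallothioneins. Of 15 listed, 14 had values, of which 7 rose and 2 fell, with a median log2 change of 0.55. HMOX1, the heme oxygenase, stood at 1.40, 1.36 and 1.15 CPM in the controls, 20.5 and 16.6 CPM with guide 3, and 11.9 and 10.5 CPM with guide 5. The guide-labelled libraries were all above the controls, and guide 3 above guide 5. Its log2 change was 3.05 ± 0.20 (adjusted p = 2.3e-07), and 1.38 on the FPKM scale, where the added 0.5 weighs more on low values.

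SLC7A11, the cystine importer, rose by 2.47 ± 0.20 (adjusted p = 1.5e-06; 1.31 on the FPKM scale), and the ferritin chains FTH1 and FTL by 2.21 ± 0.26 (adjusted p = 4.3e-05) and 1.52 ± 0.17 (adjusted p = 2.4e-05), the latter with 1.01 after GC correction. The heat shock genes of the list, which cadmium also induces, did not go the same way. HSPH1 had a log2 change of -1.40 ± 0.20 (adjusted p = 0.00017), and HSPA1B, HSPA1A, DNAJB1 and BAG3 had -0.19, 0.19, -0.33 and 0.34, none past the threshold. GCLM, the regulatory subunit of glutathione synthesis, was the other gene that fell (-0.67 ± 0.18, adjusted p = 0.0099). After GC correction 6 rose and 3 fell, and the median was 0.17. Of the myeloid markers, LYZ, SPI1 and CSF3R also rose, FLT3 and MPO fell and CD33 did not pass the threshold. Their part in this list was not tested.

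Of 10 genes of the glucocorticoid response, 9 had values, 4 rose, 1 fell and the median log2 change was 0.50. SGK1, a kinase gene, rose from 2.49 to 57.7 CPM (4.24 ± 0.20, adjusted p = 9.1e-09), TSC22D3 (GILZ) changed by 1.88 ± 0.20 (adjusted p = 1.3e-05) and CEBPD, a transcription factor of myeloid maturation, by 1.64 ± 0.23 (adjusted p = 0.0002), or 0.68 after GC correction. FKBP5, an early glucocorticoid target, fell by 1.02 ± 0.19 (adjusted p = 0.0013) and had -0.68 after GC correction. The receptor gene NR3C1 had -0.14 (adjusted p = 0.59). After GC correction 7 rose and 1 fell.

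**Figure D4:**
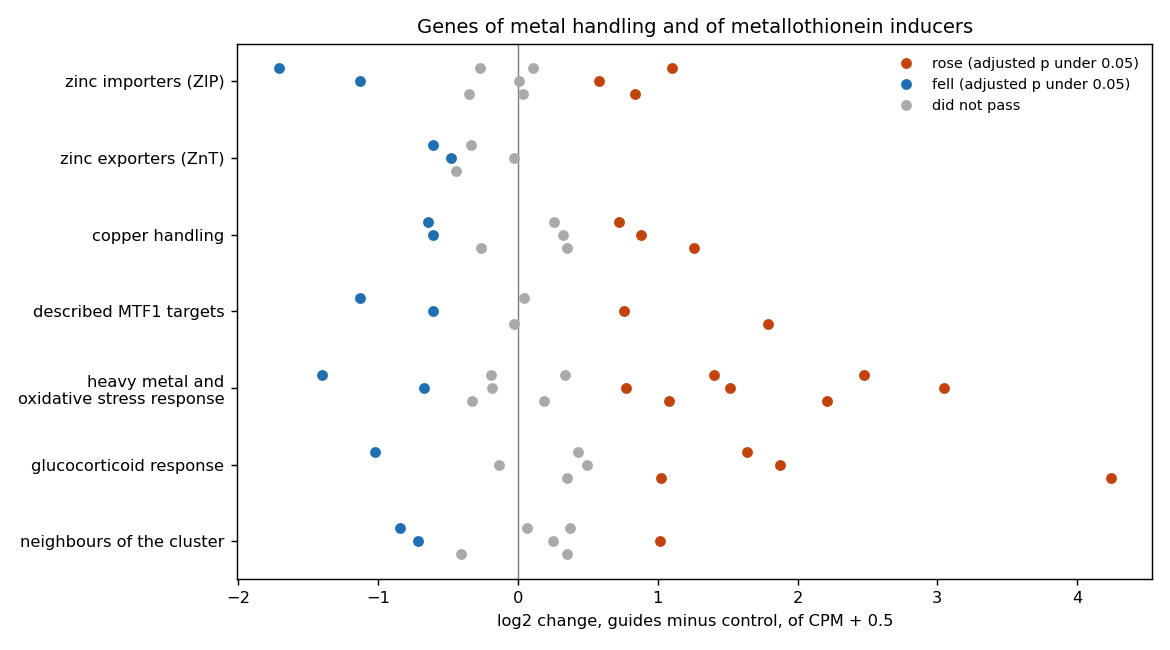
Log2 change (guides minus control, of CPM + 0.5) of each gene with values in 6 lists of metal handling and inducers and of the neighbours of the cluster, with color for the call at an adjusted p under 0.05. Each list holds both risen and fallen genes except the zinc exporters, with 0 risen and 2 fallen in the fit shown (1 risen and 0 fallen after GC correction). Over all 11408 genes 20.9% rose and 20.6% fell.

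The genes beside the cluster show how its surroundings fared. Within 500 kb of the outermost metallothionein genes, 8 other genes had values, of which 1 rose and 2 fell, with a median log2 change of 0.16. Over all genes 20.9% rose and 20.6% fell, and nothing is read from this count. NLRC5, the activator of MHC class I genes, at chr16:56989485-57083531, rose from 59.97 to 122 CPM (1.02 ± 0.17, adjusted p = 0.00077), with 0.47 after GC correction and 0.66 on the FPKM scale. NUDT21, a subunit of the mRNA cleavage factor, at chr16:56429133-56452199, fell from 326 to 182 CPM (-0.84 ± 0.18, adjusted p = 0.0032), with -0.36 after GC correction. OGFOD1, a hydroxylase gene of a ribosomal protein, had -0.72 ± 0.21 (adjusted p = 0.019), -0.43 without control replicate 2 and -0.40 after GC correction, with adjusted p of 0.057 without guide 3 replicate 2 and 0.062 without guide 5 replicate 1.

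The nearest neighbours on each side with values were BBS2 and NUP93. BBS2, a gene of the cilium at chr16:56466836-56520283, had 0.06 (adjusted p = 0.81) and, after GC correction, 0.42 (adjusted p = 0.011). NUP93, a nuclear pore gene at chr16:56730105-56850286, had -0.41 (adjusted p = 0.068), and passed the threshold when libraries were scaled by quantiles, a common sum or the median of ratios (adjusted p = 0.036, 0.016 and 0.034), after GC correction (0.018) and without control replicate 1 (0.046). HERPUD1, a gene of the endoplasmic reticulum stress response, had 0.25 (adjusted p = 0.23) and CPNE2 had 0.37 (adjusted p = 0.14). Without control replicate 2, 4 of the 8 rose and 2 fell, with HERPUD1 at an adjusted p of 0.050 and CPNE2 at 0.014, and after GC correction 3 rose and 3 fell.

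Across the 7 libraries the members did not follow 1 pattern. The Pearson correlation of log2 levels was 0.946 between MT1E and MT1F, 0.898 between MT1E and MT1G and 0.862 between MT1F and MT1X. MT1H had -0.19 with MT2A and 0.10 with MT1X, and MT1H and MTF1 had -0.916. These are descriptions over 7 libraries that share the group difference, library scale and, for the close copies, reads.

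The 3 genes most like each member, among 9910 genes with a mean of at least 5 CPM, were ranked by the same correlation over the 7 libraries. For MT1H they were URB2 (0.985), TRIM16 (0.982) and AKR1A1 (0.976), and for MT2A NLRX1 (0.993), TUFM (0.992) and ILVBL (0.985). MT1G was most like NLE1 (0.982), GCAT (0.981) and AAMP (0.969), and MTF1 most like COPA (0.987), KIAA0319L (0.987) and ATP6V0E1 (0.985). For MT1E the genes were ACAP1 (0.961), SLC29A2 (0.957) and RPUSD2 (0.952), for MT1F DPH7 (0.978), DDX51 (0.977) and SLC29A2 (0.971), and for MT1X MRI1 (0.988), PEX10 (0.953) and PODXL2 (0.9501). No member was among the 3 of another, and SLC29A2, a nucleoside transporter, was shared by MT1E and MT1F. The highest of 9910 correlations over 7 libraries can be high through the selection alone, and no test was run.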

How the data were processed

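RNA was measured by sequencing in 7 libraries. The builds GRCh38.p7 and hg38 and the tools STAR 2.5.3, HTSeq, limma and edgeR are named, without roles, per the submitters' processing notes. Parameters, the strand setting and the handling of reads that match several genes are not given in the sources used here. The authors' deposited table holds FPKM per library, and their table of differential expression holds group means of CPM and a log2 fold change per guide, per the file headers. Of 11581 listed genes, 173 without values were left out. Dividing the authors' CPM by FPKM gave a whole length for all 11408 others, equal to the gene span in GENCODE 29 for 8064. A fixed number added to FPKM would therefore shrink the change of a long gene such as MTF1, so CPM were recovered as FPKM times this length. Whole reads (within 0.01) were recovered for 100% of values, each standing for 0.0261 to 0.0540 CPM, and they carry no molecular identifiers.

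The values log2(CPM + 0.5) of all genes entered a limma fit (version 3.58.1, R 4.3.3) with 3 group means (control, guide 3 and guide 5) and a mean-variance trend. Tests were two-sided, with Benjamini-Hochberg adjustment over 11408 genes and a threshold of 0.05. The members and gene lists were chosen with earlier results of these data known. Named are ZFP36L2, the members, cell type markers, up to 4 genes past the threshold with the largest change of each list, the neighbours (1 is not reported here), and the 3 genes most like each member; SCO1, SLC39A3, SLC30A1, NR3C1 and the heat shock genes and GCLM were named after their values were seen. Deviations of same-numbered replicates had correlations of both signs, so no block was used, though a pairing of the samples is not settled. The procedure was tested on simulated data. Alternatives were other added values (0.1 and 1 CPM), the FPKM scale where 2 or more libraries reached an FPKM of 1, a mean of at least 5 CPM, scaling by quantiles, a common sum or the median of ratios, no variance trend, voom on the recovered reads, the replicate block, splines on transcript GC content and length, and each library left out. The GC content and length for the splines were those of the longest annotated transcript of each gene. For the shares of the family total, the alternatives were chosen after seeing the data. Sequences were handled with Biopython 1.88 in Python 3.11.15, with RefSeq promoters (GRCh38.p14) and GENCODE 29 transcripts.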

Additional observations from a re-analysis of the deposited data

Results flagged for a closer look

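COX17, the mitochondrial copper chaperone, was at 19.6 CPM in guide 3 replicate 2, apart from the other 3 guide-labelled libraries at 14.0 to 14.9 CPM. The gap to the next library was 0.843 of the range of the 4, above the 95% critical value of Dixon's test for 4 samples. This was 1 of 37 genes looked at in this way, and chance alone flags about 1 in 20. Without this library the log2 change of COX17 was 0.62 with an adjusted p of 0.10 in limma.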

How the results depend on the processing

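MT1H was lower in the guide-labelled libraries with every alternative run, with log2 differences of -1.93 to -1.17, a direction that the choice of genes had in view. The GC and length correction gave -0.69 for MT1E, -0.72 for MT1F and -0.41 for MT1X; the cause was not tested. With each library left out in turn, the differences ran from -0.49 to -0.09 for MT1E, -0.23 to 0.05 for MT1F, -0.93 to 0.00 for MT1G, -0.26 to 0.09 for MT1X, 0.33 to 1.04 for MT2A and 0.24 to 0.58 for MTF1. The share differences kept their direction, at 12.5 percentage points for MT2A and -3.85 for MT1H with FPKM, and 11.6 and -3.27 after GC correction. Genes past the threshold for guides minus control numbered 2380 higher and 2347 lower, and 1526 and 1339 on the FPKM scale, where fewer genes were tested. Quantile scaling gave 2367 higher and 3368 lower and GC correction 2117 and 3119, with medians over all genes of -0.11 and -0.10. Leaving out single libraries gave 1620 to 3076 higher and 1111 to 2951 lower, with the lowest falls without guide 3 replicate 2 (1166) and guide 5 replicate 1 (1111). The 47 genes that differed between guides became 29 with a mean of at least 5 CPM, 152 with quantile scaling, 83 with common sum scaling and 178 after GC correction. They numbered 12 to 437 with single libraries left out, with 437 without control replicate 2, 18 without guide 3 replicate 1 or 2, 21 without guide 5 replicate 1 and 12 without guide 5 replicate 2. With the replicate number as a block, 151 genes differed between guides, 2536 were higher and 2810 lower than control, and MT1H was at -1.17. Only the controls have a replicate 3, so the members' log2 differences with the block equal those without control replicate 3. Correlations of the deviations of same-numbered libraries ran from -0.581 to 0.440. With 2 libraries per guide the 2 correlations between guides are 1 value, -0.581, so this check cannot settle whether the numbers pair the samples. Among 30 values of single genes that lost and 14 that gained the call, 0 changed sign. Among the members, depth limits MT1H most, with 218 reads in its shallowest library.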
